A study of Mus musculus with 6 samples.

Results

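Eicosanoids are short-lived lipid signals made from arachidonic acid, and macrophages are among their main sources in an inflamed peritoneal cavity. Cytosolic phospholipase A2 frees arachidonic acid from membranes, after which cyclooxygenases open the branch to prostaglandins and thromboxane, and 5-lipoxygenase with its activating protein opens the branch to leukotrienes. The enzymes at the end of each branch set which lipid is made: prostaglandin E2, prostaglandin D2, thromboxane A2, leukotriene B4 or the cysteinyl leukotriene C4.

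The transcripts of 10 such enzymes were followed: Pla2g4a (cytosolic phospholipase A2), Ptgs1 and Ptgs2 (cyclooxygenase 1 and 2), Ptges (the inducible prostaglandin E synthase), Hpgds (hematopoietic prostaglandin D synthase), Tbxas1 (thromboxane A synthase), Alox5 (5-lipoxygenase), Alox5ap (its activating protein), Lta4h (leukotriene A4 hydrolase, which makes leukotriene B4) and Ltc4s (leukotriene C4 synthase). They were chosen by name, with earlier results of these data known. All 10 were found among the 54648 gene symbols of the table, and all 10 were among the 15608 genes that passed the filter on low counts. The data were 3 WT and 3 FOXO3 KO libraries of peritoneal cells from C57BL/6 mice, 6 to 8 weeks old and kept on standard chow. Both groups received the same treatment, an injection of 3% thioglycollate into the abdomen, an irritant that draws in monocytes which mature to macrophages, and cells were collected 4 days later. The study's methods used mice of both sexes and WT littermates of homozygous FOXO3 KO mice and describe no sort, and the labels do not say whether each library is 1 mouse, so p-values measure the spread between these libraries only. The sources used here do not state which part of Foxo3 the KO allele removes.

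Library totals lay between 28083393 and 36424117 estimated counts, and levels are given as CPM, counts per 1000000 of the library size after TMM scaling. Foxo3 was at 117, 107 and 73.1 CPM in WT 1, 2 and 3, at 4.71 and 4.29 CPM in FOXO3 KO 1 and 3, and at 104 CPM in the library labelled FOXO3 KO 2. That library thus goes against its label, and results are given with it and without it. WT 3 stood apart in another way: it was over 1.5 times above every other library for 13.1% of the genes tested and over 1.5 times below every other for 12.2%. WT 3 and FOXO3 KO 3 held Xist at 871 and 1130 CPM, against 0.177 CPM or less elsewhere, and WT 3 also held the Y-linked Ddx3y at 23.7 CPM, against 2.37 CPM in FOXO3 KO 3 and 98.7 to 123 CPM in the other 4. The 12 macrophage markers, among them Adgre1, Csf1r and Cd68, summed to 15100 to 19900 CPM in WT and 16700 to 18700 CPM in FOXO3 KO. The labelled cell type was thus present throughout. The largest part of each sum was Lyz2, at 7750 to 11400 CPM, and single markers were less even. Cd68 was at 525 CPM in WT 3 and 990 to 1470 CPM elsewhere, while 4 of the 12 were highest in WT 3. In such bulk samples, a larger share of cells that use a gene and more transcript per cell cannot be told apart.

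Levels between genes were compared per kilobase of the longest coding transcript in GENCODE M21. Alox5ap had the highest level of the 10, with a mean of 275 ± 33.5 CPM per kb (SD, n = 6 libraries), and lay above Ltc4s in all 6. Ltc4s (157 ± 29.6 CPM per kb) and Tbxas1 (133 ± 34.2 CPM per kb) followed and overlapped, Ltc4s being the higher in 4 of 6 libraries. Tbxas1 was above Lta4h in all 6, although their ranges met through WT 3. Lta4h (62.6 ± 9.20 CPM per kb) and Hpgds (55.7 CPM per kb, from 17.9 to 74.4) overlapped as well, as did Ptgs1 (26.0 ± 19.2 CPM per kb) and Alox5 (22.9 ± 11.2 CPM per kb), each of the last pair being the higher in 3 of 6 libraries. Pla2g4a stood at 12.2 ± 2.58 CPM per kb, below Alox5 in all 6 libraries. Ptges (2.38 ± 1.05 CPM per kb) and Ptgs2 (0.425 ± 0.222 CPM per kb) were the lowest and did not overlap with each other or with Pla2g4a. Per length, the transcript of the constitutive cyclooxygenase was therefore far more abundant than that of the inducible one. The transcript of the activating protein of 5-lipoxygenase was likewise more abundant than that of the enzyme, and protein was not measured. By exon length summed over all transcripts, the order changed only in that Hpgds moved above Tbxas1 and Lta4h. The levels themselves depend on the length used: for Tbxas1 it was 1990 bp by transcript and 9094 bp by summed exons. Its overlap with Ltc4s holds for the transcript length only.

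Of the members, 3 lay higher in every FOXO3 KO library than in any WT library, with the library labelled FOXO3 KO 2 counted as its label says: Pla2g4a at the head of the pathway, Ptgs2 at the entry to the prostaglandin branch and Ltc4s at the end of the cysteinyl leukotriene branch. No member lay lower in all FOXO3 KO libraries. Among all genes tested, 7.00% did not overlap with FOXO3 KO higher and 5.36% with FOXO3 KO lower. By edgeR's quasi-likelihood test 0 of the 10 members passed an adjusted p of 0.05, and so did 0% of all genes tested. At an unadjusted p under 0.05 there were 3 members, all higher in FOXO3 KO, against 4.04% of all genes higher and 1.65% lower. Foxo3 itself had an adjusted p of 0.859 by this test. Without the library labelled FOXO3 KO 2 it was 0.105, at a log2 fold change of -4.46. An adjusted p above 0.05 in this test thus does not show that a gene is unchanged. DESeq2 gave an adjusted p under 0.05 to 2 members, Ltc4s and Pla2g4a, against 0.790% of all genes higher in FOXO3 KO, and edgeR's likelihood ratio test (0.654% of all genes higher) and limma-voom (0% of all genes) gave it to 0. The median log2 fold change of the 10 members was 0.37, and that of all genes tested was -0.01. Summed markers of other cells differed with the groups too, and their part in these differences was not tested. The 13 neutrophil markers summed to 137 to 225 CPM in WT and 231 to 503 CPM in FOXO3 KO. The 12 mesothelial and fibroblast markers summed to 45.3 to 80.8 CPM in WT and 103 to 520 CPM in FOXO3 KO. Of these 12, 10 were tested, all 10 with a higher mean in FOXO3 KO, also without WT 3. In edgeR 9 of the 10 had an unadjusted p under 0.05, beside 4.04% of all genes higher, and 0 an adjusted p under 0.05. Of the 13 neutrophil markers 8 were tested, all 8 with a higher mean in FOXO3 KO, 3 of them at an unadjusted p under 0.05 and 0 at an adjusted p under 0.05 in edgeR. Those 3 did not overlap between the groups: S100a9 (0.252 to 5.61 CPM in WT, 6.93 to 164 CPM in FOXO3 KO), S100a8 (2.40 to 11.3 and 12.9 to 83.2 CPM) and Cxcr2 (0.587 to 0.886 and 2.23 to 18.7 CPM). Without WT 3, 7 of the 8 were higher and 1 lower in FOXO3 KO. Retnlg, Mmp8 and Mmp9 then had log2 fold changes of -0.01, 0.1 and 0.1. Csf3r, the most abundant of the list by CPM, was at 116 to 139 CPM in WT and 139 to 164 CPM in FOXO3 KO, just short of overlap. The granule and surface markers Ly6g, Mpo, Elane, Camp and Ngp were each at 0.247 CPM or less in all 6 libraries.

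**Figure D1:**
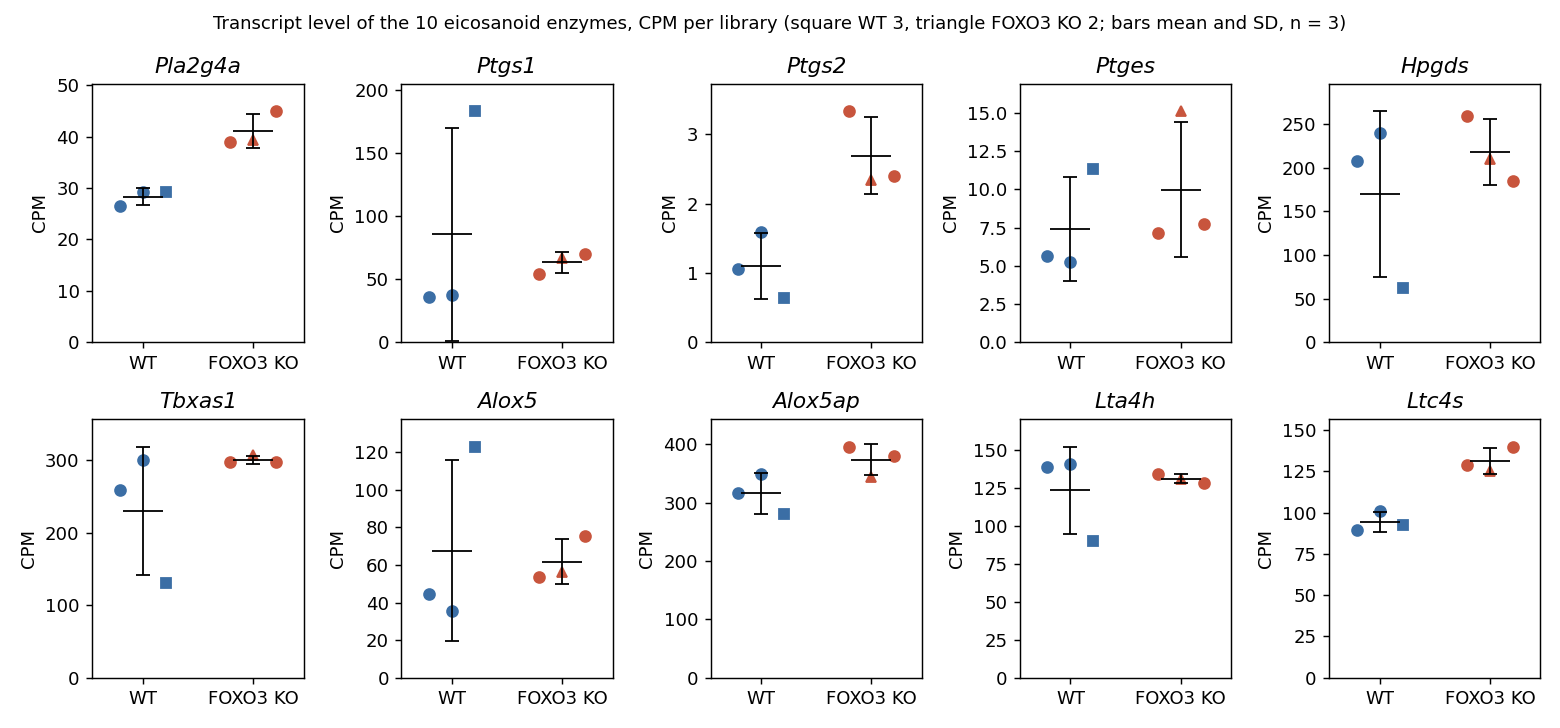
CPM of each of the 10 enzymes (vertical axes, each from 0) in the 3 WT (blue) and 3 FOXO3 KO (red) libraries, with WT 3 as a square, the library labelled FOXO3 KO 2 as a triangle, and bars for the mean and SD (n = 3). Pla2g4a, Ptgs2 and Ltc4s separate the groups, while WT 3 lies far from WT 1 and WT 2 for Ptgs1, Alox5, Hpgds and Tbxas1.

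Pla2g4a, whose product frees arachidonic acid, was at 26.4, 29.3 and 29.2 CPM in WT 1, 2 and 3, and at 39.0, 39.4 and 44.9 CPM in FOXO3 KO 1, 2 and 3. The 3 WT libraries lay close together, WT 3 included, and the library labelled FOXO3 KO 2 was as high as FOXO3 KO 1 although its Foxo3 level was that of WT. The means were 28.3 ± 1.66 and 41.1 ± 3.25 CPM (SD, n = 3 each), a log2 fold change of 0.54 (standard error, SE, 0.10), with an adjusted p of 0.714 from edgeR's quasi-likelihood test, the source of all edgeR values below, and of 0.00611 from DESeq2. Without the library labelled FOXO3 KO 2 the log2 fold change was 0.57, and the adjusted p from DESeq2 was 0.0761, so that call ended (DESeq2 then called 0 members and 0.475% of all genes higher). Without WT 3 the log2 fold change of Pla2g4a was 0.57, and over all 19 alternatives it lay between 0.47 and 0.59 and the adjusted p between 0.00459 and 0.928.

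Ltc4s joins glutathione to leukotriene A4, the step that commits it to the cysteinyl leukotrienes. It was at 89.6, 101 and 92.3 CPM in WT 1, 2 and 3, and at 129, 125 and 140 CPM in FOXO3 KO 1, 2 and 3. The lowest FOXO3 KO library lay above the highest WT library, and neither WT 3 nor the library labelled FOXO3 KO 2 stood apart from its group. The means were 94.2 ± 5.78 and 131 ± 7.56 CPM (SD, n = 3 each), a log2 fold change of 0.48 (SE 0.10), with an adjusted p of 0.714 from edgeR's quasi-likelihood test and of 0.00415 from DESeq2. Without the library labelled FOXO3 KO 2 the log2 fold change was 0.51 and DESeq2's adjusted p was 0.0605, again no longer past the threshold, and without WT 3 the log2 fold change was 0.48. Over all alternatives the log2 fold change lay between 0.43 and 0.53 and the adjusted p between 0.00367 and 0.928. The antisense gene Gm26542 overlaps Ltc4s on the other strand. It held 45, 33 and 48 counts in WT 1, 2 and 3, and 51, 57 and 70 counts in FOXO3 KO 1, 2 and 3. The counts of Gm26542 were thus also higher in every FOXO3 KO library, but small against the 2853 to 4664 counts of Ltc4s. Whether the counting used strand is not given in the sources used here, and the part of Gm26542 in the level of Ltc4s was not tested.

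Ptgs2, the inducible cyclooxygenase, is induced by inflammatory stimuli in macrophages. It was at 1.05, 1.59 and 0.643 CPM in WT 1, 2 and 3, and at 3.33, 2.34 and 2.40 CPM in FOXO3 KO 1, 2 and 3. These levels rest on few reads, with 38, 45 and 23 counts in WT and 94, 64 and 80 counts in FOXO3 KO, yet the groups did not overlap. The means were 1.09 ± 0.474 and 2.69 ± 0.557 CPM (SD, n = 3 each), a log2 fold change of 1.30 (SE 0.39), with an adjusted p of 0.731 from edgeR's quasi-likelihood test and of 0.152 from DESeq2. It was the largest fold change among the 10 members in this fit. Without the library labelled FOXO3 KO 2 it was 1.39, without WT 3 it was 1.04, and over all alternatives it lay between 1.03 and 1.66 with an adjusted p between 0.146 and 1.

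The start regions of these 3 genes are shown because they are the members whose groups did not overlap. The windows run from 250 bases before to 50 bases after the start annotated by RefSeq on GRCm38.p6, the same assembly as the mm10 build that the submitters' processing notes name, and capitals mark any match to the motifs searched. They lie at chr1:150099781-150100080 on the plus strand for Ptgs2, at chr1:149961241-149961540 on the minus strand for Pla2g4a and at chr11:50238483-50238782 on the minus strand for Ltc4s.
Ptgs2: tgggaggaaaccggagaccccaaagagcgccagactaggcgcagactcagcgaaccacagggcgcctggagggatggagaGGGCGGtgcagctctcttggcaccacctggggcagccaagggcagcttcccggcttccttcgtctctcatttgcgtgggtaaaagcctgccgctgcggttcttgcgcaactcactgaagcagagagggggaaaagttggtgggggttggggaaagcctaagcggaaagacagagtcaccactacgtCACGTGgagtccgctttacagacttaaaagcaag
Pla2g4a: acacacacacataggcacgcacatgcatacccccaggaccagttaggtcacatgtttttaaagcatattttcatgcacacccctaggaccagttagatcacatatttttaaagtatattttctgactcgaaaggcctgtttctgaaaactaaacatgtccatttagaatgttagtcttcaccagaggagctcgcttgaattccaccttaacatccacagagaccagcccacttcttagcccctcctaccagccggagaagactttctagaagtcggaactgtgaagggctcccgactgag
Ltc4s: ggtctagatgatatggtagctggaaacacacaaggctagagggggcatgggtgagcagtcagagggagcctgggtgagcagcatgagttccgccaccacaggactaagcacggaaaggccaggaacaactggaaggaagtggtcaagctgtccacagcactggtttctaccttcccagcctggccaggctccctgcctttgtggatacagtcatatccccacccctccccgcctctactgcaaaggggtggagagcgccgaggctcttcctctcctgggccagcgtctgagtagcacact
On both strands, the motifs searched were the FoxO core GTAAACA (in 3.65% of all 32851 windows of this length), the TATA box TATAAA (13.6%), CCAAT (37.4%), the NF-kB motif (0.411%), the AP-1 motif TGANTCA (7.81%), the PU.1 type motif GAGGAAGT (3.2%), the GC box GGGCGG (35.7%) and the E box CACGTG (7.15%). The Ptgs2 window held a GC box at position -170 from the start and an E box at position 17, and the windows of Pla2g4a and Ltc4s shown held none of the 8 motifs. The FoxO core was in none of the 10 windows used here, which cover 9 of the members (not Alox5ap), and this says only that these letters are not there. A second RefSeq start of Pla2g4a, at chr1:149922390-149922689, held CCAAT and TATAAA.

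In the prostaglandin branch, the level of Ptgs1 differed most between libraries of 1 group. Ptgs1, the constitutive cyclooxygenase, was at 35.5 and 37.8 CPM in WT 1 and 2 but at 183 CPM in WT 3, and at 54.0, 66.5 and 69.8 CPM in FOXO3 KO 1, 2 and 3. WT 3 was thus the highest of all 6 libraries, 5.0 times the mean of the other WT libraries, while all 3 FOXO3 KO libraries lay above WT 1 and 2. Its log2 fold change was -0.43 (SE 0.66, edgeR adjusted p of 0.902) over all 6 libraries and was 0.80 (SE 0.13, edgeR adjusted p of 0.439) without WT 3 and -0.46 without the library labelled FOXO3 KO 2. Without WT 3, DESeq2 gave an adjusted p of 0.000114, a fit chosen after the data were seen that called 1.09% of all genes higher, and the range of adjusted p over all alternatives was 0.000114 to 1.

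The balance of the 2 cyclooxygenases was followed as the number of Ptgs1 counts for each Ptgs2 count within a library, which needs no scaling. It was 33.7, 23.8 and 285 in WT 1, 2 and 3, and 16.2, 28.5 and 29.1 in FOXO3 KO 1, 2 and 3. Only FOXO3 KO 1 lay below all WT libraries, and the groups overlapped. The log2 ratio of Ptgs2 to Ptgs1 was higher in FOXO3 KO by 1.36 (exact two-sided permutation test, p = 0.40, the smallest that 3 against 3 libraries allow being 0.10), and by 0.25 without WT 3 (exact permutation p = 0.70).

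Of the synthases after the cyclooxygenase step, Ptges makes prostaglandin E2 and was at 5.62, 5.22 and 11.3 CPM in WT 1, 2 and 3, and at 7.12, 15.1 and 7.74 CPM in FOXO3 KO 1, 2 and 3. The library labelled FOXO3 KO 2 was the highest and WT 3 the next. Its log2 fold change was 0.43 (SE 0.43) over all 6 libraries, 0.01 without the library labelled FOXO3 KO 2 and 0.89 without WT 3, with edgeR adjusted p of 0.866, 0.999 and 0.571. The library labelled FOXO3 KO 2 also had the highest sum of mesothelial and fibroblast markers, 520 CPM against 45.3 to 185 CPM in the other 5 libraries, and their part in the Ptges value was not tested.

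Hpgds, which makes prostaglandin D2, was at 207, 240 and 62.3 CPM in WT 1, 2 and 3, and at 259, 210 and 184 CPM in FOXO3 KO 1, 2 and 3. WT 3 was the lowest at 0.279 times the mean of WT 1 and 2, and the remaining libraries of the groups overlapped. Its log2 fold change was 0.36 (SE 0.47, edgeR adjusted p of 0.891) over all 6 libraries and -0.03 (SE 0.16, edgeR adjusted p of 0.981) without WT 3, and 0.38 without the library labelled FOXO3 KO 2. The counts of Hpgds were whole numbers, within 0.01, in 0 of 6 libraries. Estimated counts are not whole where reads are divided, but the distance from a whole number does not give how many were. How far this bears on the level of Hpgds was not tested.

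Tbxas1, which makes thromboxane A2, was at 259, 300 and 130 CPM in WT 1, 2 and 3, and at 297, 307 and 297 CPM in FOXO3 KO 1, 2 and 3. The group means were 230 ± 88.5 CPM (WT) and 300 ± 5.84 CPM (FOXO3 KO; SD, n = 3 each), with WT 3 far below the others. Its log2 fold change was 0.39 (SE 0.30, edgeR adjusted p of 0.854) and 0.11 (SE 0.09, edgeR adjusted p of 0.824) without WT 3, and 0.37 without the library labelled FOXO3 KO 2. Like those of Hpgds, its counts were seldom whole, in 1 of 6 libraries.

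In the leukotriene branch, Alox5 followed the pattern of Ptgs1. It was at 44.3, 35.4 and 123 CPM in WT 1, 2 and 3, and at 53.5, 56.3 and 75.7 CPM in FOXO3 KO 1, 2 and 3. WT 3 was 3.09 times the mean of WT 1 and 2 and above every FOXO3 KO library, and every FOXO3 KO library was above WT 1 and 2. The fold change on the log2 scale was -0.13 (SE 0.48, edgeR adjusted p of 0.959) over all 6 libraries, 0.64 (SE 0.18, edgeR adjusted p of 0.513) without WT 3 and -0.06 without the library labelled FOXO3 KO 2.

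Alox5ap presents arachidonic acid to 5-lipoxygenase and varied least of the 10 members. It was at 317, 350 and 281 CPM in WT 1, 2 and 3, and at 396, 344 and 380 CPM in FOXO3 KO 1, 2 and 3. The groups overlapped only through the library labelled FOXO3 KO 2, which lay just below WT 2. Its fold change on the log2 scale was 0.24 (SE 0.14, edgeR adjusted p of 0.843) over all 6 libraries, 0.30 (SE 0.17, edgeR adjusted p of 0.994) without the library labelled FOXO3 KO 2 and 0.17 without WT 3.

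Lta4h, which competes with Ltc4s for the same substrate, was at 139, 141 and 90.2 CPM in WT 1, 2 and 3, and at 134, 131 and 128 CPM in FOXO3 KO 1, 2 and 3. WT 1 and 2 lay slightly above all FOXO3 KO libraries and WT 3 below them. Its log2 fold change was 0.09 (SE 0.18, edgeR adjusted p of 0.922) over all 6 libraries and -0.08 (SE 0.07, edgeR adjusted p of 0.836) without WT 3, and 0.09 without the library labelled FOXO3 KO 2.

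**Figure D2:**
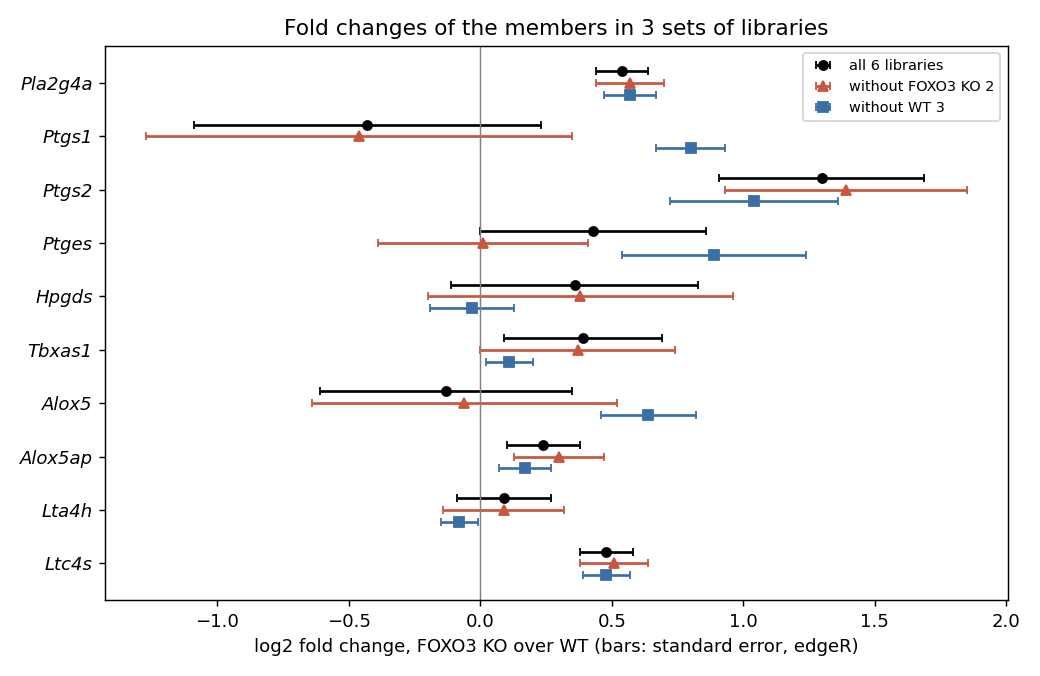
The log2 fold change of FOXO3 KO over WT (horizontal axis, bars for the standard error, SE, from edgeR) for each member over all 6 libraries (black), without the library labelled FOXO3 KO 2 (red) and without WT 3 (blue). Pla2g4a, Ptgs2, Ltc4s, Alox5ap, Tbxas1 and Ptges lie to the right of 0 in all 3 sets, Ptges at only 0.01 without the library labelled FOXO3 KO 2. Ptgs1 moves from -0.43 to 0.80 and Alox5 from -0.13 to 0.64 once WT 3 is left out.

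Between their lowest and highest library, 6 members (Ptgs1, Hpgds, Alox5, Ptgs2, Ptges and Tbxas1) spanned more than 1 on the log2 scale, a share of 60.0%, against 30.2% of all genes tested. WT 3 was the highest library for 2 members (37.2% of all genes) and the lowest for 5, Ptgs2, Hpgds, Tbxas1, Alox5ap and Lta4h (37.5% of all genes). It was over 1.5 times above every other library for 2 members, Ptgs1 and Alox5, where 13.1% of all genes were. It was over 1.5 times below every other library for 3 members, Hpgds, Tbxas1 and Ptgs2, where 12.2% of all genes were. Without WT 3, 6 members did not overlap with FOXO3 KO higher (Pla2g4a, Ptgs1, Ptgs2, Ptges, Alox5 and Ltc4s), where 13.5% of all genes did so, and 1, Lta4h, with FOXO3 KO lower, where 11.9% did. Without the library labelled FOXO3 KO 2, 4 did so with FOXO3 KO higher, Alox5ap joining the first 3, against 11.0% of all genes (9.23% lower). Without both libraries, 7 did so with FOXO3 KO higher (19.6% of all genes) and 1 lower (18.4%). An unadjusted p under 0.05 in edgeR, higher in FOXO3 KO, was reached by 3 members without the library labelled FOXO3 KO 2 (3.05% of all genes) and by 6 without WT 3 (6.15%).

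The same library held more transcript of resident peritoneal macrophage, mast cell and lymphocyte genes. The 10 markers of resident peritoneal macrophages, among them Gata6, Timd4 and Icam2, summed to 5480 CPM in WT 3 and to 467 to 924 CPM in the other 5 libraries, and 9 of the 10 were highest in WT 3. The 10 mast cell markers summed to 843 CPM in WT 3 against 110 to 312 CPM elsewhere, and the 8 B cell markers to 5540 CPM against 300 to 1400 CPM. All 8 B cell markers had a lower mean in FOXO3 KO, also without WT 3, and over all 6 libraries 0 had an unadjusted p under 0.05 in edgeR. The 10 platelet and megakaryocyte markers summed to 225 CPM in WT 3 and 85.3 to 109 CPM elsewhere, nearly all of it Pf4, which macrophages also use, while Gp9 was at 0 in all libraries. The part of these cells in the levels of Ptgs1, Alox5, Hpgds and Tbxas1 was not tested, and group differences of these 4 genes rest on whether WT 3 is counted.

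Genes with the most similar profile over the 6 libraries were sought for the 6 members that spanned more than 1 on the log2 scale, by the root mean square difference of centred log2(CPM + 0.5) among the 4714 other genes that spanned more than 1. Nearest to Ptgs1 were Rab27a (0.133), Icam2 (0.150) and Ccnd1 (0.154), of which Icam2 is in the list of resident macrophage markers. Nearest to Alox5 were Dnph1 (0.0835), Epop (0.104) and Ssh2 (0.110). Nearest to Hpgds were Rhob (0.0693), Emp1 (0.0703) and Rhoc (0.0715), and nearest to Tbxas1 were Bak1 (0.0441), Tmem51 (0.0444) and Jdp2 (0.0527). Nearest to Ptgs2 were Lcn2 (0.0882), Zranb3 (0.115) and Arpin (0.189), and nearest to Ptges were Pawr (0.0726), Gpm6a (0.0976) and Cav1 (0.0997). Such a search always finds near genes among so many, and the distances are given as a description. Some of these genes were at low levels, such as Dnph1 (0.494 to 2.57 CPM), Epop (0.635 to 3.58 CPM) and Pawr (0.353 to 1.97 CPM). At such levels the added 0.5 narrows the differences between libraries, so their fold differences need not match those of the member.

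The start regions of Ptgs1 and Hpgds are shown because these 2 members lay furthest above and below WT 1 and 2 in WT 3. They lie at chr2:36230176-36230475 on the plus strand and at chr6:65144681-65144980 on the minus strand, with motifs in capitals as above.
Ptgs1: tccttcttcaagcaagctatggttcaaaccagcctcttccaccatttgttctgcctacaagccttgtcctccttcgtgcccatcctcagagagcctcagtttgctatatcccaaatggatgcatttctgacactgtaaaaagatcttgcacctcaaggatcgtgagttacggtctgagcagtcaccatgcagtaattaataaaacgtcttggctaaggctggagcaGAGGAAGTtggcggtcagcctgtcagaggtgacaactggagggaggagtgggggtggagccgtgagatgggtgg
Hpgds: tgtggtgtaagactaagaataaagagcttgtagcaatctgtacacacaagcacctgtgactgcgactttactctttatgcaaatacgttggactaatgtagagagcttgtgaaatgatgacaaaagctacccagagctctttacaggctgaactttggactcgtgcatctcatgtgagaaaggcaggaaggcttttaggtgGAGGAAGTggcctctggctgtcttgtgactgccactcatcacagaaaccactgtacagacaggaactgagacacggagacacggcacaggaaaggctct
Both held the PU.1 type motif GAGGAAGT, found in 3.2% of all windows, at position -24 in Ptgs1 and at position -49 in Hpgds, and no other motif of the 8. The windows of the other members held a GC box (Alox5 and Ptges), CCAAT (Lta4h) or TATAAA with an AP-1 motif (Tbxas1).

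**Figure D3:**
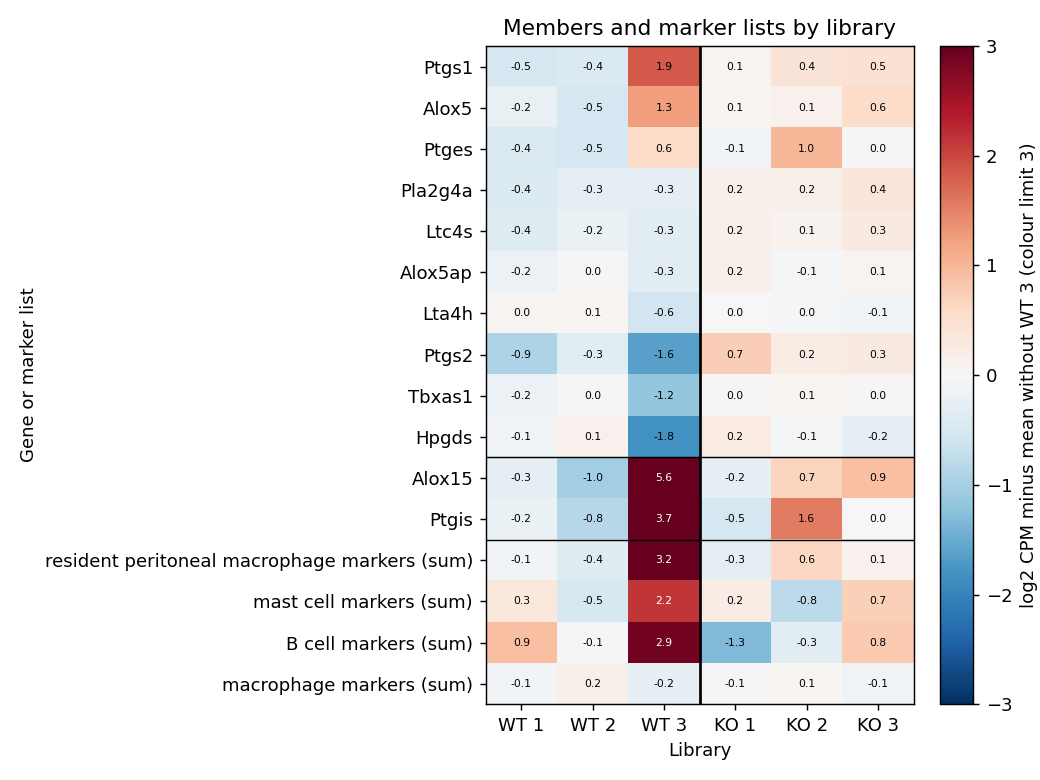
Each cell gives log2 CPM of a member, of Alox15 and Ptgis, or of a summed marker list (rows) in each library (columns), minus the mean of the 5 libraries other than WT 3, in colour limited to 3 and printed to 1 decimal. WT 3 is above the others for Ptgs1, Alox5 and the resident macrophage, mast cell and B cell lists, and below them for Hpgds, Tbxas1 and Ptgs2.

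The other genes of the pathway were described from lists of synthases, receptors, phospholipases and breakdown enzymes. By edgeR's quasi-likelihood test 0 genes of the 4 lists passed an adjusted p of 0.05 over all 6 libraries, nor did any by DESeq2. For the counts of each list, 48.8% of all genes tested had a higher mean in FOXO3 KO, and at an unadjusted p under 0.05 4.04% were higher and 1.65% lower. Of 18 other synthases and lipoxygenases, 13 were tested, 8 with a higher and 5 with a lower mean in FOXO3 KO (median log2 fold change 0.02), and 1 of the 13 was higher at an unadjusted p under 0.05 in edgeR, beside 4.04% of all genes: Aloxe3, an epidermis-type lipoxygenase at 0.168 to 1.26 CPM. With 15, 6 and 6 counts in WT 1, 2 and 3, Aloxe3 needed the FOXO3 KO libraries to pass the filter on low counts. Its direction was thus favoured by the filter and gives no support. The most abundant by CPM was Cotl1, which binds 5-lipoxygenase, with 811 ± 188 CPM in WT and 926 ± 83.0 CPM in FOXO3 KO (SD, n = 3 each). Alox15 (12/15-lipoxygenase), chosen after its values were seen, was at 1890 CPM in WT 3 and between 18.9 and 72.6 CPM in the other 5 libraries, and Ptgis (prostacyclin synthase), chosen likewise, at 124 CPM against 5.43 to 28.8 CPM. Their log2 fold changes were -3.54 and -1.60 over all 6 libraries and 1.15 and 1.13 without WT 3, with edgeR adjusted p between 0.523 and 0.855.

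Among 15 receptors, 12 were tested, with 10 higher and 2 lower in FOXO3 KO (median log2 fold change 0.52). At an unadjusted p under 0.05 in edgeR, 3 of the 12 were higher, all leukotriene receptors, beside 4.04% of all genes. Of these, Cysltr1 and Ltb4r1 did not depend on the filter, while Ltb4r2 did, as given below. Cysltr1, the main receptor of the cysteinyl leukotrienes, was at 65.0, 67.3 and 56.7 CPM in WT 1, 2 and 3, and at 93.7, 74.4 and 108 CPM in FOXO3 KO 1, 2 and 3. Its groups did not overlap, and the library labelled FOXO3 KO 2 lay closest to WT. Its log2 fold change was 0.55 (SE 0.16, edgeR adjusted p of 0.720), and 0.68 without the library labelled FOXO3 KO 2, where DESeq2 gave an adjusted p of 0.0325. Ltb4r1, the high-affinity receptor of leukotriene B4, was at 8.06, 7.90 and 6.32 CPM in WT 1, 2 and 3, and at 11.5, 10.7 and 15.1 CPM in FOXO3 KO 1, 2 and 3, a log2 fold change of 0.74 (SE 0.20, edgeR adjusted p of 0.714). The groups of Ltb4r1 did not overlap either. Ltb4r2, the low-affinity receptor, was at 0.280 to 0.318 CPM in WT and 0.567 to 0.584 CPM in FOXO3 KO, on 9 to 19 counts per library. Its log2 fold change was 0.92 (SE 0.27, edgeR adjusted p of 0.714). With 11, 9 and 10 counts in WT 1, 2 and 3, it passed the filter on low counts only through the FOXO3 KO libraries. Its direction was thus favoured by the filter, and its place among the 3 receptors counted above gives no support. Ptgdr2, among the 10 with a higher mean, had 6, 10 and 6 counts in WT 1, 2 and 3. In FOXO3 KO 1, 2 and 3 it had 10, 5 and 32 counts. Ptgdr2 too needed FOXO3 KO libraries to pass the filter, so its direction was favoured likewise.

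Of 17 genes of eicosanoid breakdown and export, 16 were tested, 12 with a higher and 4 with a lower mean in FOXO3 KO (median log2 fold change 0.12), and 3 of the 16 were higher at an unadjusted p under 0.05 in edgeR (Hpgd, Ggt1 and Slco3a1). Of these, Ggt1 depended on the filter, as given below. Hpgd, which inactivates prostaglandins by oxidising them, was at 3.77, 3.03 and 2.26 CPM in WT 1, 2 and 3, and at 9.67, 4.01 and 10.6 CPM in FOXO3 KO 1, 2 and 3. FOXO3 KO 1 and 3, which had little Foxo3 transcript, were well above WT, and the library labelled FOXO3 KO 2 was just above WT 1. The log2 fold change was 1.42 (SE 0.42, edgeR adjusted p of 0.724, DESeq2 adjusted p of 0.108) over all 6 libraries. Without the library labelled FOXO3 KO 2 it was 1.74 (SE 0.29, edgeR adjusted p of 0.718, DESeq2 adjusted p of 5.33e-05). Ggt1, a gamma-glutamyl transferase, was at 0.0831 to 0.363 CPM in WT and at 1.13, 0.328 and 1.26 CPM in FOXO3 KO 1, 2 and 3, with the library labelled FOXO3 KO 2 inside the WT range, and had a log2 fold change of 2.11 (SE 0.70, edgeR adjusted p of 0.777). With 3, 5 and 13 counts in WT 1, 2 and 3, Ggt1 needed the FOXO3 KO libraries to pass the filter on low counts. Its direction was thus favoured by the filter, and its place among the 3 genes counted above gives no support. Slco3a1, a transporter, was at 7.83 to 8.42 CPM in WT and 9.81 to 15.0 CPM in FOXO3 KO, with no overlap and a log2 fold change of 0.70 (SE 0.20, edgeR adjusted p of 0.714). Ephx1 (microsomal epoxide hydrolase) had an unadjusted p under 0.05 in edgeR without the library labelled FOXO3 KO 2, with a log2 fold change of -1.28, and not over all 6 libraries, where it was -0.90. Dpep2, a dipeptidase that cuts leukotriene D4 and the most abundant of this list by CPM, had a log2 fold change of 0.02.

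Of 23 phospholipases and genes of arachidonic acid handling, 18 were tested, 8 higher and 10 lower (median log2 fold change -0.02), with 1 of the 18 higher (Lpcat2) and 1 lower (Pla2g7) at an unadjusted p under 0.05. Pla2g7, which breaks down platelet-activating factor and was the most abundant of the list by CPM, was at 361, 403 and 366 CPM in WT 1, 2 and 3, and at 310, 315 and 240 CPM in FOXO3 KO 1, 2 and 3. The groups did not overlap, and FOXO3 KO was lower, with a log2 fold change of -0.38 (SE 0.15, edgeR adjusted p of 0.839). Lpcat2, which makes platelet-activating factor in inflammatory cells, was at 37.2, 40.8 and 47.1 CPM in WT 1, 2 and 3 and at 47.7, 50.1 and 61.0 CPM in FOXO3 KO 1, 2 and 3, a log2 fold change of 0.34 (SE 0.14, edgeR adjusted p of 0.839). The lowest FOXO3 KO library of Lpcat2 lay barely above the highest WT library. Pla2g4f, a cytosolic phospholipase, did not pass the filter over all 6 libraries. Without the library labelled FOXO3 KO 2 it passed only through FOXO3 KO 1 and 3, with 14 and 20 counts against 6, 3 and 2 in WT 1, 2 and 3. The direction of its log2 fold change there, 2.29, was therefore set by the filter and is no result about the gene.

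**Figure D4:**
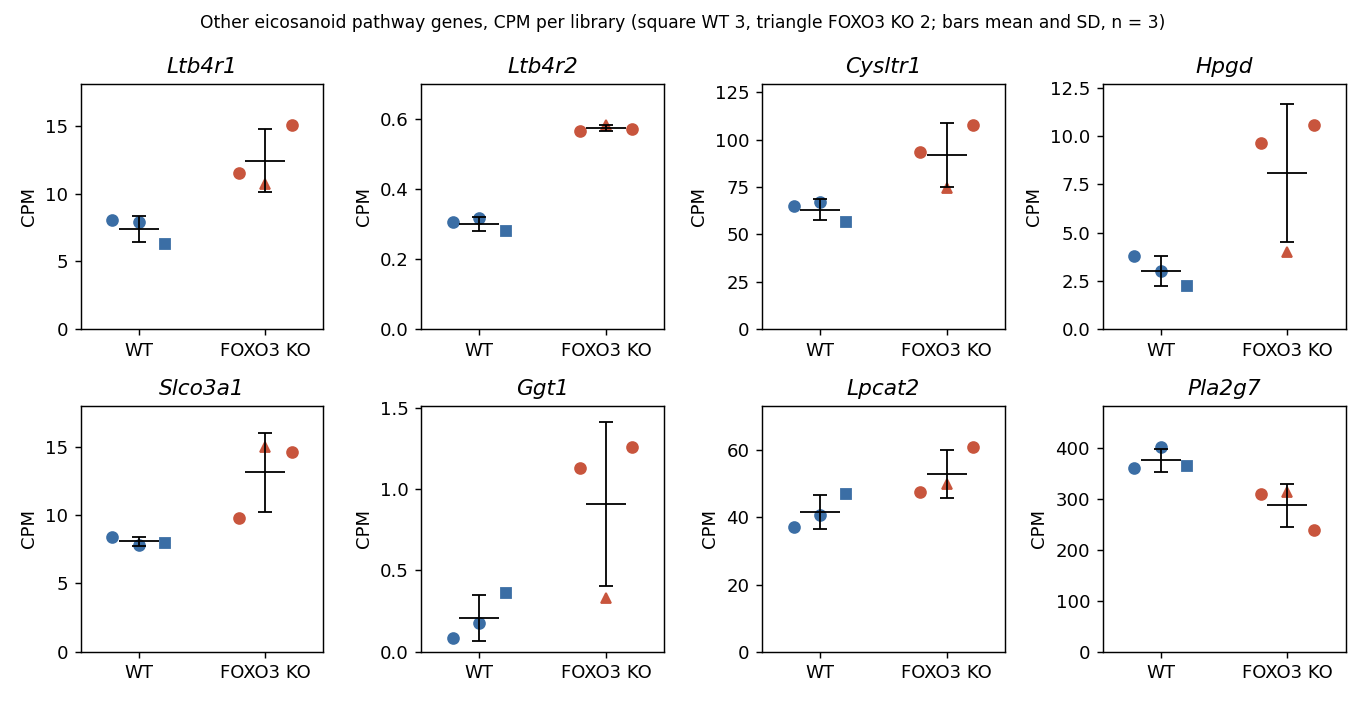
CPM of 8 other eicosanoid pathway genes (vertical axes, each from 0) in the 3 WT (blue) and 3 FOXO3 KO (red) libraries, with WT 3 as a square, the library labelled FOXO3 KO 2 as a triangle, and bars for the mean and SD (n = 3). Hpgd and Ggt1 are high only in FOXO3 KO 1 and 3, while the leukotriene receptors Ltb4r1, Ltb4r2 and Cysltr1 are higher in all 3 FOXO3 KO libraries and Pla2g7 is lower. Ggt1 and Ltb4r2 needed the FOXO3 KO libraries to pass the filter on low counts, so their direction was favoured by it.

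The members lie on 6 chromosomes of GRCm38 in GENCODE M21. Ptgs2 (chr1:150100031-150108227) and Pla2g4a (chr1:149829618-149961290) are on chromosome 1, on opposite strands, and both were higher in all FOXO3 KO libraries. Ptges (chr2:30889471-30929863) and Ptgs1 (chr2:36230426-36252272) are on chromosome 2, Alox5ap is at chr5:149264767-149288153, and Ltc4s is at chr11:50236461-50238616. Tbxas1 (chr6:38875404-39084585), Hpgds (chr6:65117293-65144908) and Alox5 (chr6:116410077-116461178) are on chromosome 6, and Lta4h (chr10:93453411-93484875) is on chromosome 10, which also carries Foxo3 (chr10:42181841-42276755). All 10 are annotated as protein-coding.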

How the data were processed

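Peritoneal cell RNA of 3 WT and 3 FOXO3 KO libraries was sequenced as paired 76 bp reads. The authors deposited estimated counts for 54648 gene symbols in 6 libraries, with no normalization. The submitters' processing notes name STAR 2.6.1d, kallisto 0.46.0, DESeq2 and mm10 without saying how each was used, and which annotation was counted is not given in the sources used here. Rounding was applied before testing (81.4% of values differed from a whole number by less than 0.01). That share includes zeros, since only 23879 to 25799 of the 54648 symbols had a count in a library. It does not give the share among expressed genes. Groups follow the labels. The comparison used the quasi-likelihood test of edgeR 4.0.16 under R 4.3.3 (filterByExpr, TMM, glmQLFit, glmQLFTest), and p-values of all tested genes were adjusted together by Benjamini-Hochberg at a threshold of 0.05. DESeq2 1.42.0, limma 3.58.1 (voom), other scalings and filters, a replicate block, an Xist covariate and each library left out were alternatives. Fits without both WT 3 and the library labelled FOXO3 KO 2, and DESeq2 without WT 3, were chosen after seeing the data. The standard error of an edgeR value is its log2 fold change divided by the root of its F statistic. The steps were also run on simulated counts with 200 genes changed. Those counts held no library like WT 3 or the library labelled FOXO3 KO 2. They therefore do not show how the steps handle such libraries. Named are the members, Foxo3, and, of the pathway lists, genes with an unadjusted p under 0.05 over all libraries or without the library labelled FOXO3 KO 2 and the highest expressed gene. Eosinophil, T cell and dendritic cell markers were also summed (53.0 to 113, 18.8 to 124 and 60.3 to 179 CPM over the libraries). The members and lists were chosen with earlier results of these data known. Depth, 28083393 to 36424117 counts per library, limits the precision of genes with few counts.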

Additional observations from a re-analysis of the deposited data

How the results depend on the processing

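Pla2g4a, Ptgs2, Ltc4s, Alox5ap and Tbxas1 kept a higher level in FOXO3 KO under all 19 alternatives. For Tbxas1 the size rested on WT 3: its log2 fold change lay between 0.09 and 0.63, and was 0.11 without WT 3. Of 190 member fold changes recomputed, 19 turned direction. Ptgs1 turned to 0.02 by limma-voom, 0.03 with the replicate block, 0.03 with the Xist covariate, 0.80 without WT 3, 0.76 without WT 3 and the library labelled FOXO3 KO 2, and 0.79 by DESeq2 without WT 3. Alox5 turned, in the same order, to 0.08, 0.08, 0.07, 0.64, 0.70 and 0.63. In the last 3 of these settings Lta4h turned to -0.08, -0.09 and -0.10 and Hpgds to -0.03, -0.01 and -0.04. Ptges turned to -0.01 with the Xist covariate without the library labelled FOXO3 KO 2. With 1 library left out Ptgs1 lay between -0.82 and 0.80, Alox5 between -0.43 and 0.64, Lta4h between -0.08 and 0.20 and Hpgds between -0.03 and 0.70. The cause was not tested. Genes past an adjusted p of 0.05 numbered 0 higher and 0 lower by edgeR's quasi-likelihood test (630 and 257 at an unadjusted p under 0.05). They numbered 123 and 6 by DESeq2, 102 and 7 by the likelihood ratio test, 77 and 37 by DESeq2 without the library labelled FOXO3 KO 2, 165 and 16 by DESeq2 without WT 3, 11 and 6 with the Xist covariate without the library labelled FOXO3 KO 2, 3 and 1 without WT 3 and the library labelled FOXO3 KO 2, and 0 in the plain quasi-likelihood fit with any 1 library left out. Members past it numbered 2 by DESeq2 and 3 by DESeq2 without WT 3, and 0 otherwise, also with any 1 library left out of the quasi-likelihood test. The members' median, 0.37, lay between 0.30 and 0.52 with 1 library left out, and was 0.47 with the Xist covariate, 0.48 without WT 3 and the library labelled FOXO3 KO 2 and 0.51 by DESeq2 without WT 3. Members whose groups did not overlap numbered 3 over all 6 libraries (7.00% of all genes higher and 5.36% lower). They numbered 4 without the library labelled FOXO3 KO 2 (11.0% and 9.23%) and 7 without WT 3 (13.5% and 11.9%). Without both these libraries they numbered 8 (19.6% and 18.4%), so the share of all genes rose as well. With library size alone and without WT 2 they numbered 5, and with 1 library left out the range was 3 to 7. The share of all genes is not given for library size alone or for each library left out. These counts therefore cannot be read as a change in the members. The log2 difference of the Ptgs2 to Ptgs1 ratio lay between 0.25 and 2.04 with 1 library left out.

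Same-numbered libraries did not deviate together in every pair (r across genes of 0.339, -0.0612 and 0.567). Of the WT libraries, 2 of 3 correlated best with their own number, while WT 2 correlated best with FOXO3 KO 1 (0.611). What a shared number stands for is not given in the sources used here, and these values do not settle whether such libraries were paired. With the replicate block 0 genes passed, and the ratio difference of 1.36 had an exact sign-flip p of 0.50, where the smallest possible is 0.25. Ptgs2 rests on 23 to 94 counts per library, which limits its precision.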
